A study of Mus musculus with 27 samples.

Results

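The nuclear genes of oxidative phosphorylation were followed in the ileal epithelium of mice treated with TCDD, a dioxin that activates the aryl hydrocarbon receptor (AhR). Members were the protein-coding nuclear genes named as a subunit of complex I (Nduf), complex II (Sdh), complex III (Uqcr), complex IV (Cox4 to Cox8 families) or ATP synthase (Atp5), by mouse symbol. Of 46078 genes in the count tables, 93 matched, and the 87 with a mean of at least 10 counts per mouse are described. They comprised 36 genes of complex I, 8 complex I assembly factors (Ndufaf), 4 of complex II, 8 of complex III, 13 of complex IV and 16 of ATP synthase. *Ndufa4*, whose protein is known to be found with complex IV, and *Atp5s*, which is named for ATP synthase but is not one of its core subunits, made up the rest. The rule used names and mean counts over all mice, and no contrast between doses.

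RNA-Seq was performed on epithelium scraped from the ileum of 27 male C57BL/6 mice, postnatal day 56 as labelled, with 3 mice in each of 9 groups. Vehicle mice received sesame oil by gavage, and TCDD was given in the same oil at 8 doses, the low ones of 0.01, 0.03, 0.1 and 0.3 µg/kg and the high ones of 1, 3, 10 and 30 µg/kg, all every 4 d for 28 d. Mice are named by the number in their label: 2, 3 and 4 were vehicle mice, 43 was given 1 µg/kg, and 65, 67 and 68 were given 30 µg/kg. Gene counts totalled 12.26 to 17.14 M in a mouse, and of these the 87 members held 0.492 to 0.756%. By mouse number, the 15 mice from vehicle to 0.3 µg/kg and mouse 41 at 1 µg/kg were the first to carry their library index, and the other 11 mice the second, an order read here from the index sequences and called index use. Enterocyte markers, which the labelled tissue should hold, summed to 7552, 8422 and 7052 CPM (counts scaled to a library of fixed size, after TMM normalization) in the vehicle mice.

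Oxidative phosphorylation takes place in the inner mitochondrial membrane. Complexes I and II feed electrons from NADH and succinate to ubiquinone, complexes III and IV pass them through cytochrome c to oxygen, and ATP synthase uses the proton gradient formed by complexes I, III and IV. Most subunits come from nuclear genes and are imported, a small core set is encoded by mitochondrial DNA, and enterocytes use the ATP for ion and nutrient transport.

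Levels in vehicle mice were compared per length, as TPM, a share of all transcripts scaled to a fixed total, from the exon length of each gene. Complex I subunits had a median of 62.6 TPM and ranged from *Ndufb2* (10.6 ± 1.45 TPM, SD, n = 3) to *Ndufb9* (261 ± 12.8). Complex II, III, IV and ATP synthase genes had medians of 203, 168, 155 and 135 TPM, while assembly factors, which are not part of the finished enzyme, had a median of 8.66 TPM. The highest levels were those of *Atp5a1*, the alpha subunit of ATP synthase (844 ± 22.2 TPM), and *Cox6a1*, a small subunit of complex IV (838 ± 27.0 TPM). These 2 means differed by less than their SDs. *Ndufaf2* had the lowest level (3.49 ± 0.496 TPM). Long annotated exons that the tissue may not use lower such a value, as for *Atp5l*, at 15.9 TPM.

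**Figure D1:**
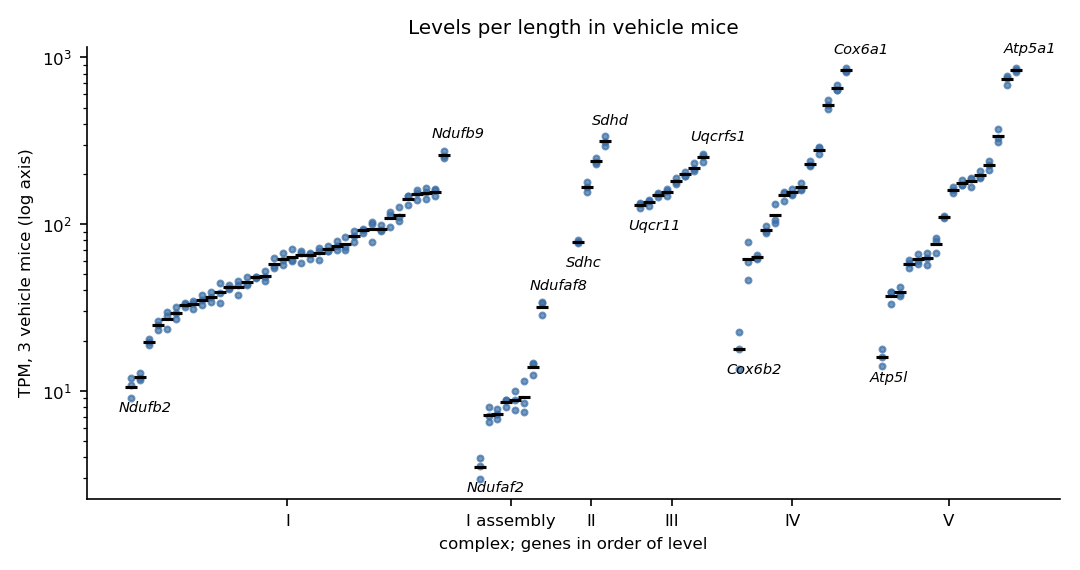
Levels of 85 members in the 3 vehicle mice (dots) and their mean (bars), in TPM on a log axis, ordered by level within each complex. Assembly factors have the lowest median (8.66 TPM), and *Cox6a1* and *Atp5a1* lie highest.

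The 6 matched genes under the count minimum are isoforms of other members. *Cox4i2*, *Cox6a2*, *Cox8b* and *Ndufa4l2* had means of 0.44, 0.48, 0.26 and 0.81 counts per mouse, and *Cox7b2* and *Cox8c* had 0 counts. Their widespread counterparts were abundant, for example *Cox4i1* at 520 TPM and *Cox8a* at 652 TPM in vehicle mice. *Cox7a1*, the form known from heart and muscle, was detected at 61.4 ± 15.9 TPM beside 228 ± 9.04 TPM for *Cox7a2*, and *Cox6b2*, known from testis, at 17.9 ± 4.42 TPM beside 280 ± 13.4 TPM for *Cox6b1*.

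*Cyp1a1*, the classic AhR target, checked the treatment. It was at most 0.211 CPM in vehicle mice, and at 1062, 1881 and 2279 CPM in mice 65, 67 and 68, and 4 of 5 AhR targets were higher at 30 µg/kg.

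The comparison of each dose with vehicle asks where along the doses the members' expression changed. Each gene was tested with edgeR's quasi-likelihood test, with p-values adjusted over the 16741 genes tested at that dose. From 0.01 to 0.3 µg/kg, 0 of the 87 members passed an adjusted p of 0.05, and 0% of all genes were lower. At an unadjusted p under 0.05, 1, 2, 0 and 2 members passed at these doses, and DESeq2 called 0. The share of all genes at that unadjusted p is not given here or below, so these counts stand without a background. The median log2 fold change of the members lay between -0.006 and 0.037 at these 4 doses.

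At 1 µg/kg, 0 members passed the adjusted p (0.299% of all genes were lower), 13 were lower at an unadjusted p under 0.05, and DESeq2 called 1, *Uqcrfs1*. The median member log2 fold change was -0.117, against 0.004 for all genes. At 3 µg/kg, 1 member passed, *Ndufaf5*, an assembly factor known to modify the *Ndufs7* protein, where 0.705% of all genes were lower, or 0.46% with a fold change of at least 1.5 as well. Its levels were 2.04, 2.80 and 2.91 CPM against 4.36, 4.69 and 5.74 in vehicle mice (log2 fold change -0.93, SE 0.20, adjusted p = 0.0137). This call was lost without vehicle mouse 4 and without mouse 50. The median over members at 3 µg/kg was 0.024, and 38 of 87 were below 0, against 50.4% of all genes. At 10 µg/kg, 0 members passed by edgeR and by DESeq2 (1.34% of all genes were lower), and 10 were lower at an unadjusted p under 0.05.

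At 30 µg/kg, 17 of 87 members (19.5%) were lower at the adjusted p, where 8.49% of all genes were lower. 0 members were higher by edgeR or DESeq2, and 1 was higher at an unadjusted p under 0.05, where 9.29% of all genes were higher at the adjusted p. The decreases were mostly small, with a median of 19.2% and a range from 14.6 to 40.3%. Only *Ndufb6*, *Ndufaf5* and *Ndufaf4*, or 3.45% of members, also reached the 1.5-fold limit, against 3.98% of all genes lower and 5.42% higher. The share past that limit was thus near the background, and the share past the adjusted p alone was above it. Among genes with at least 10 counts in every mouse, 17 members and 10.1% of all genes were lower at the adjusted p. With the 6 mice of the comparison fitted alone, 2 members and 2.12% of all genes were. Neither these shares nor those below were matched for expression level, which sets how small a change can pass. The median log2 fold change was -0.181 over members and 0.019 over all genes, and 77 of 87 members were below 0, against 48.2% of all genes. In bulk tissue, fewer cells that use a gene and less RNA per cell cannot be told apart.

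**Figure D2:**
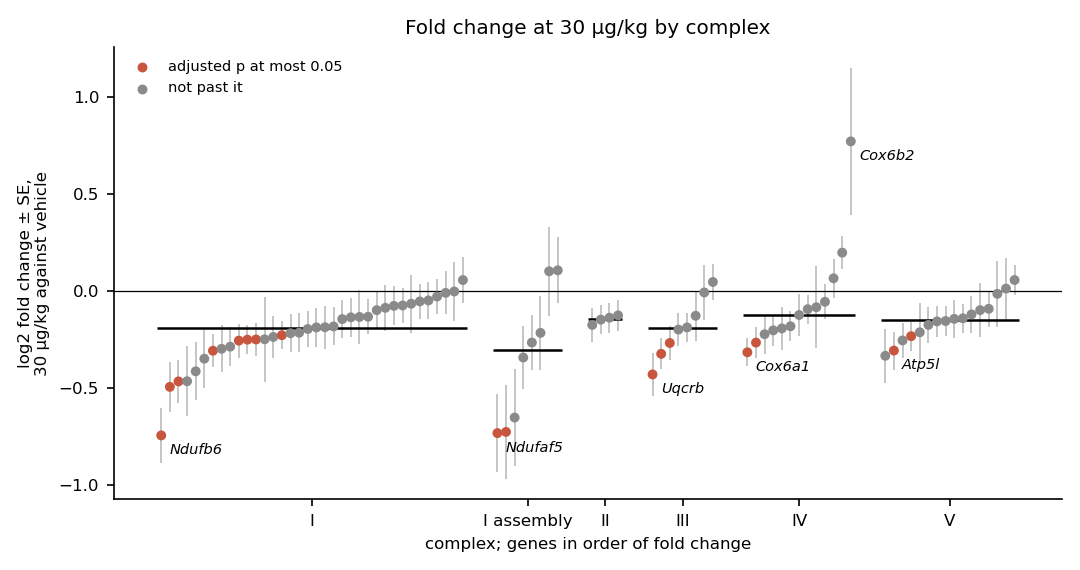
Log2 fold change (dots) with SE (lines) of 85 members at 30 µg/kg against vehicle, by complex, with the median of each group as a bar. Red dots passed the adjusted p: they lie between -0.743 and -0.227, and *Cox6b2* (0.77) lies highest with the widest error.

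Complex I held 8 of the 17 lower genes, among 36 tested (median -0.191, 35 of 36 below 0). *Ndufb6*, a membrane-arm accessory subunit, had the smallest p. It was measured at 12.3, 13.6 and 14.2 CPM with vehicle and, after 30 µg/kg TCDD, at 8.67, 7.04 and 8.22 CPM, a log2 fold change of -0.74 (SE 0.14, adjusted p = 0.000808). All treated mice were below all vehicle mice, as were the mice at 3 µg/kg (11.0 to 11.8 CPM) and at 10 µg/kg (9.72 to 12.1 CPM). The gene lies on chr4:40270591-40279421 (minus strand, GRCm38). *Ndufb6* remained past the adjusted p without any 1 of the 6 mice, under the other normalizations and tools, and with index use as a covariate, and it was lost with the clock score as a covariate (-0.534, adjusted p = 0.68 by edgeR). Of its 50-base exon stretches, 31.6% are shared with *Smim27*, which overlaps it on the opposite strand. Since the strand setting of the counting was not given, reads of the 2 genes may not have been told apart.

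*Ndufs8* and *Ndufs3*, core subunits of the arm that passes electrons to ubiquinone, were at 30.4, 19.6 and 24.4 CPM (vehicle 32.2, 35.1 and 35.6) and at 19.1, 13.2 and 15.8 CPM (vehicle 21.5, 21.9 and 24.2). Mouse 65 lay just under the vehicle mice for both genes, and mice 67 and 68 lay far under. The log2 fold changes were -0.47 (SE 0.11, adjusted p = 0.00445) and -0.49 (SE 0.13, adjusted p = 0.00943). The call of *Ndufs3* was lost without vehicle mouse 4 or mouse 67 (-0.438 and -0.371). *Ndufs4*, an accessory subunit mutated in a mitochondrial disease, fell by 0.307 on the log2 scale (SE 0.086, adjusted p = 0.0164), a call lost without mouse 68 (-0.238). *Ndufs1*, *Ndufv3*, *Ndufa9* and *Ndufb9* passed with log2 fold changes between -0.255 and -0.227, and the call of *Ndufb9* was lost without vehicle mouse 4, mouse 67 or mouse 68 (-0.212, -0.204 and -0.188). *Ndufa4* was at 30.1, 16.0 and 21.2 CPM against 28.4, 30.3 and 32 and did not pass (log2 fold change -0.43, adjusted p = 0.101), but without mouse 65 it did (-0.729, adjusted p = 0.0033 by edgeR).

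Among the assembly factors, 2 of 8 passed. *Ndufaf5* was at 3.58, 2.78 and 2.52 CPM (log2 fold change -0.73, SE 0.20, adjusted p = 0.0124). *Ndufaf4* was at 9.02, 5.26 and 4.56 CPM against 10.9, 9.24 and 11.1 CPM (log2 fold change -0.73, SE 0.24, adjusted p = 0.0421). Mouse 65 lay just under the lowest vehicle mouse for *Ndufaf4*. That call was lost under upper-quartile normalization and without vehicle mouse 2, vehicle mouse 4, mouse 67 or mouse 68 (log2 fold changes -0.7, -0.675, -0.611 and -0.544), and the call of *Ndufaf5* was lost without vehicle mouse 4, mouse 67 or mouse 68 (-0.606, -0.687 and -0.630). *Ndufaf2* had a log2 fold change of -0.65 that did not pass (adjusted p = 0.069). It passed without mouse 65 (-0.853) and with library size alone as the scale (-0.772). Of its 50-base stretches, 64.1% are shared with other genes.

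0 of the 4 complex II genes passed by edgeR or DESeq2, nor at an unadjusted p under 0.05, and all 4 had small negative values: *Sdha* -0.147, *Sdhb* -0.137, *Sdhc* -0.125 and *Sdhd* -0.174. *Sdha*, the flavoprotein that oxidises succinate, was at 312, 252 and 271 CPM against 311, 307 and 305 CPM. Mouse 65 was level with the vehicle mice and the other two were below them. Without mouse 65, *Sdha* (-0.267), *Sdhc* (-0.249) and *Sdhd* (-0.275) passed the adjusted p, and with library size alone as the scale *Sdha*, *Sdhb* and *Sdhd* did.

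In complex III, 3 of 8 passed (median -0.193). *Uqcrb*, a small subunit known as a ubiquinone-binding protein, was at 40.5, 42.2 and 38.6 CPM against 54.1, 50.8 and 58.5 CPM (log2 fold change -0.43, SE 0.11, adjusted p = 0.0076). Here mouse 65 lay between the other two and all were under the vehicle mice. Of its 50-base exon stretches, 25.5% are shared with other annotated genes. *Uqcrfs1*, the Rieske iron-sulfur protein, was at 93.0, 78.7 and 85.0 CPM against 102, 107 and 112 CPM (log2 fold change -0.32, SE 0.080, adjusted p = 0.00706), and *Uqcrq* fell by 0.267. The call of *Uqcrb* was lost without vehicle mouse 4 (-0.374) and that of *Uqcrfs1* without mouse 67 (-0.267).

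In complex IV, 2 of 13 passed. *Cox6a1* was at 158, 140 and 146 CPM against 183, 173 and 197 CPM (log2 fold change -0.32, SE 0.071, adjusted p = 0.00359), with no overlap, and *Cox5a* fell by 0.265. *Cox4i1* and *Cox8a* had log2 fold changes of -0.093 and -0.055. *Cox6b2* was at 2.58 CPM in mouse 65, 19.2 in mouse 67 and 10.3 in mouse 68, against 4.79, 5.87 and 8.03 in vehicle mice. Its mice at 30 µg/kg spanned the whole range of the series and it did not pass (log2 fold change 0.77, SE 0.38, adjusted p = 0.165). Without mouse 65 it passed, at 1.21, as did *Cox6b1* (-0.284) and *Cox7a2* (-0.350). *Cox7a2l*, which is linked to the joining of complexes III and IV, had a log2 fold change of 0.20 (adjusted p = 0.105).

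In ATP synthase, 2 of 16 passed: *Atp5l* (log2 fold change -0.31, adjusted p = 0.0332) and *Atp5f1* (-0.23, adjusted p = 0.0351), both of the stalk and membrane part. The call of *Atp5l* was lost without vehicle mouse 2, vehicle mouse 3, mouse 67 or mouse 68 (adjusted p = 0.0841, 0.0812, 0.0863 and 0.158 by edgeR). The 3 genes that encode the same subunit c differed in value, at -0.333 for *Atp5g1*, -0.254 for *Atp5g3* and -0.014 for *Atp5g2*, and none passed by edgeR. *Atp5g3* passed by DESeq2 (adjusted p = 0.0327) and with RLE size factors by edgeR (adjusted p = 0.048). Without mouse 65, *Atp5g1* and *Atp5g3* passed, at -0.607 and -0.425. *Atp5a1* was at 883, 655 and 713 CPM against 821, 811 and 853 CPM (log2 fold change -0.14, adjusted p = 0.33), and it passed without mouse 65 (-0.307).

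**Figure D3:**
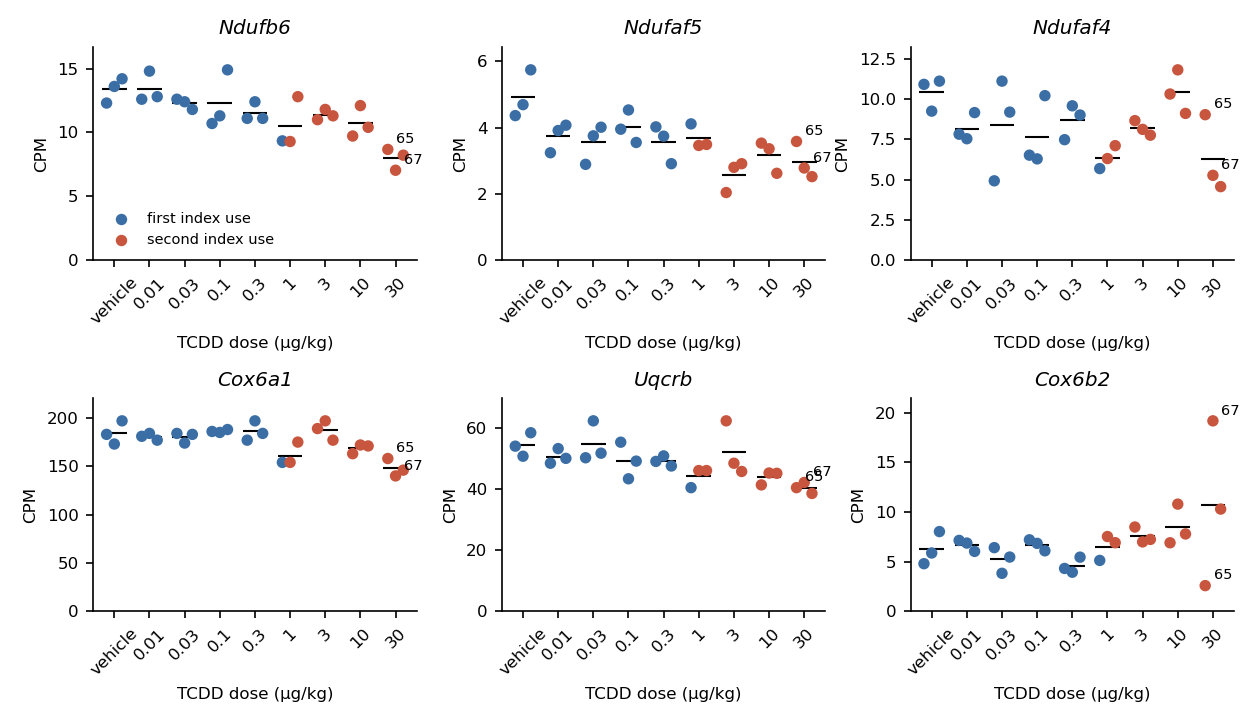
CPM of 6 members in each of the 27 mice (dots) by TCDD dose in µg/kg, with group means as bars. Blue and red mark mice whose library index was used for the first or second time, and at 30 µg/kg *Ndufb6* lies at 7.04 to 8.67 CPM while *Cox6b2* spans 2.58 to 19.2 CPM.

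The promoters of the 3 members past both limits and of *Cox6a1* are shown because NRF1, ETS-family factors and YY1 are known regulators of respiratory genes. The sequences are from RefSeq (GRCm38.p6), run 5′ to 3′ from 250 bases before to 50 after the start, and lie on chr4:40279372-40279671 (minus strand, *Ndufb6*), chr2:140170396-140170695 (plus, *Ndufaf5*), chr4:24897833-24898132 (plus, *Ndufaf4*) and chr5:115348909-115349208 (minus, *Cox6a1*). Capitals mark the letters GCGCATGC (NRF1), CCGGAAG (ETS) or AAGATGGCG (YY1) on either strand, and the NRF1 letters can overlap their own reverse complement, as in GCGCATGCGC.
Ndufb6: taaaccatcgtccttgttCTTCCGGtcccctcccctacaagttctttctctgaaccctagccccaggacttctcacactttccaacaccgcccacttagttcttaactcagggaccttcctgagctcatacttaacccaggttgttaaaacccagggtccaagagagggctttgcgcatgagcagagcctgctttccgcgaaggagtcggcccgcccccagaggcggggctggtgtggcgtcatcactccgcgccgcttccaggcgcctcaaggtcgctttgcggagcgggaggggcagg
Ndufaf5: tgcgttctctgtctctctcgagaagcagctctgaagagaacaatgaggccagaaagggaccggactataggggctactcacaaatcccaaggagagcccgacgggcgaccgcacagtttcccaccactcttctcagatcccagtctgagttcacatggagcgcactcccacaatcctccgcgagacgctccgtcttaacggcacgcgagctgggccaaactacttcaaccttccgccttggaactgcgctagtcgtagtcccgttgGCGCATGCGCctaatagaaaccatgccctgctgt
Ndufaf4: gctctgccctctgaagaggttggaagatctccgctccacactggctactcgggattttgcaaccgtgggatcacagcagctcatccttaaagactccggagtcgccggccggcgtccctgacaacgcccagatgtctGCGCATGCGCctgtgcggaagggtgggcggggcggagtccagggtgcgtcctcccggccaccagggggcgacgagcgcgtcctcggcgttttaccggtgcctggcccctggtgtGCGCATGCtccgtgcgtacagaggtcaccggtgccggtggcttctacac
Cox6a1: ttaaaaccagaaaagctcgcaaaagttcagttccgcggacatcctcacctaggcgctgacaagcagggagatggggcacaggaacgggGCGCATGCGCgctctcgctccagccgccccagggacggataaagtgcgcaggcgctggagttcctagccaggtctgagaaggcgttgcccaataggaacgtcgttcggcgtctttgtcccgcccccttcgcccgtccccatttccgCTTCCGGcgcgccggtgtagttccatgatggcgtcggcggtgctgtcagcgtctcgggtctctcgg

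*Ndufaf5*, *Ndufaf4* and *Cox6a1* hold the NRF1 letters, and *Ndufb6* and *Cox6a1* hold the ETS letters. Promoters were matched for 72 members, of which 16.7% hold the NRF1 letters, 23.6% the ETS letters and 9.72% the YY1 letters, against 2.71%, 8.86% and 1.4% of all 32851 promoters. Members count 1 promoter each, while the 32851 are all those listed, of genes expressed here or not. The shares of members and of all promoters are thus on unlike sets, for each element here. Among the 12 matched promoters of genes lower at 30 µg/kg, 4, 5 and 2 hold them, and among the other 60, 8, 12 and 5 do. The core of the dioxin response element bound by AhR, GCGTG, is in 54.2% of member promoters and 32.4% of all, and in 6 of the 12 and 33 of the 60. TCAAGGTCA, the element of ERRA, is in 2 member promoters. A match describes the letters only.

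The 3 mice at 30 µg/kg were not alike. The median over members of the deviation in log2 CPM from the mean of 27 mice was -0.290 in mouse 67 and -0.219 in mouse 68, but 0.044 in mouse 65, against 0.010, 0.031 and 0.066 in vehicle mice. In the same 2 mice the members held 0.492 and 0.520% of counts, compared to 0.7% in mouse 65 and 0.678 to 0.705% in vehicle mice. Mice 67 and 68 had 74 and 75 of the 87 members below all 3 vehicle mice, where 37.1 and 34.2% of all genes were below. Mouse 65 had 27 below and 31 above, where 32% of all genes were below and 33.3% above. The next lowest mouse was mouse 43 at 1 µg/kg, with a median deviation of -0.173 and 66 members below (33.7% of all genes). The other mice at that dose were at -0.086 and -0.010.

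**Figure D4:**
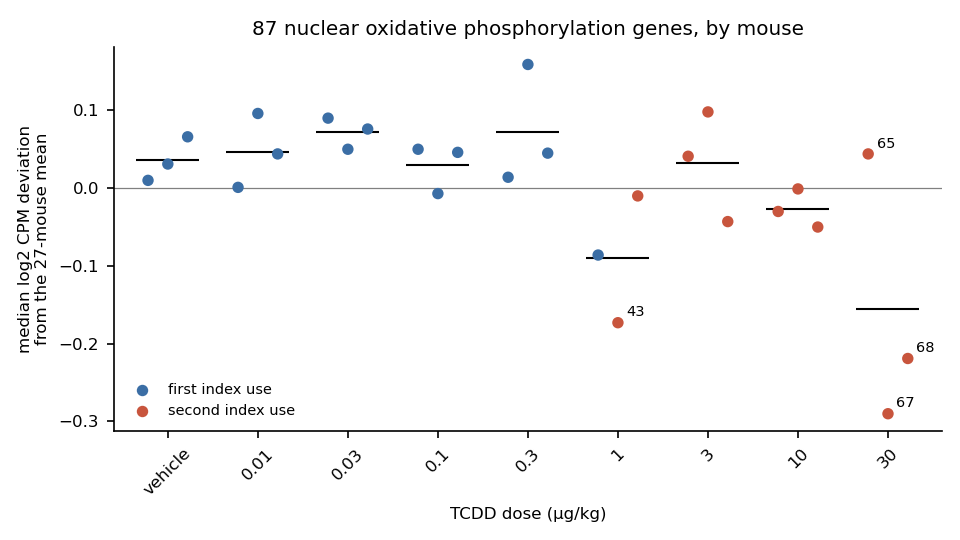
Median over the 87 members of the log2 CPM deviation from the 27-mouse mean, 1 dot per mouse by dose in µg/kg, with group means as bars and colours for the library index use. Mice 67 (-0.290), 68 (-0.219) and 43 (-0.173) lie lowest, and mouse 65 (0.044) lies with the vehicle mice.

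Without mouse 65, 49 members were lower at 30 µg/kg and 1, *Cox6b2*, was higher, where 14.6% of all genes were lower. Without mouse 67 or mouse 68, 5 and 6 members were lower, where 3.55 and 5.45% of all genes were. Without vehicle mouse 4, 6 were lower (3.93% of all genes), and without vehicle mouse 2, 11 were (6.08%). The members' share in the fits without mouse 67 or 68 was thus much nearer to that of all genes. *Ndufb6*, *Cox6a1* and *Ndufs8* were among the lower members in each of these fits. All 3 mice at 30 µg/kg were below all vehicle mice for 24 members (27.6%, against 13.3% of all genes), among them 16 of the 17 called, all but *Ndufs1*. At 1 µg/kg this count was 23 (26.4%, against 10.2%), at 3 µg/kg it was 8 (9.2%, against 12.1%), and at 10 µg/kg it was 19 (21.8%, against 11.8%). The members' share was thus below that of all genes at 3 µg/kg and above it at the doses on either side.

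Other mitochondrial genes were read from lists. Of 77 mitochondrial ribosomal protein genes, which translate the subunits of mitochondrial DNA, 21 were lower and 1, *Mrpl24*, was higher at 30 µg/kg (median log2 fold change -0.297). Of the 7 that also passed the fold limit, those with the smallest p were *Mrpl42*, *Mrpl57*, *Mrpl47*, *Mrpl35* and *Mrps18b*, with log2 fold changes of -0.764, -0.716, -0.8, -0.587 and -0.673. *Mrpl47* overlaps the member *Ndufb5* on the opposite strand. Of 39 assembly factors outside the rule, 2 were lower, *Coa5* (-0.284) and *Cox10* (-0.628), a smaller share than the 8.49% of all genes. Their median was -0.166, however, with 28 of 39 below 0, and by slope over dose 7 were lower and 1 higher. Of 16 electron carriers and related genes 3 were lower, the cytochrome gene *Cycs* (-0.468), *Cyc1* (-0.306) and the ubiquinone synthesis gene *Coq5* (-0.526). In the TCA cycle, which feeds complexes I and II, *Fh1* and *Dld* were lower and *Ogdh* was higher among 13. Of 89 genes whose symbols begin like cytosolic ribosomal proteins, 3 were lower and 2 higher (median -0.021), and 2 of these 5, *Rps6ka6* (lower) and *Rps6kc1* (higher), encode kinases.

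Among 14 regulators, *Ppargc1a*, the coactivator known to drive mitochondrial gene expression, was higher, at 55.0, 112 and 65.2 CPM against 31.3, 37.5 and 24.5 CPM (2.49-fold, SE 0.25 on the log2 scale, adjusted p = 0.00103). *Tfam*, which binds and transcribes mitochondrial DNA, and *Pprc1*, a relative of *Ppargc1a*, were lower (-0.452, adjusted p = 0.00715, and -0.569, adjusted p = 0.0396). All 3 treated mice were above all vehicle mice for *Ppargc1a*, and mouse 67, lowest in the members, was highest.

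Subunits encoded by mitochondrial DNA had a group median opposite in sign to that of the nuclear members at 30 µg/kg. Mice 67 and 68 showed this split against the vehicle mice, and mouse 65 did not. Of 10 tested, 6 were higher, where 9.29% of all genes were, and 0 lower at 30 µg/kg (median log2 fold change 0.463, all 10 above 0). The sum over all 13 in the count files was 21950, 16680 and 15330 CPM in mice 65, 67 and 68. It was 13080, 14390 and 12880 CPM in vehicle mice, so each mouse at 30 µg/kg lay above every vehicle mouse. The highest sum was in mouse 65, whose nuclear members were at vehicle level. Mice 67 and 68 lay below mice 35 and 36 at 0.3 µg/kg (17320 and 17150 CPM) and mouse 57 at 10 µg/kg (18260 CPM).

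Markers of cell types were summed in each mouse, since scrapings mix cells. The crypt and proliferation markers (8 genes, *Mki67*, *Lgr5* and others) summed to 510, 242.9 and 304.5 CPM in mice 65, 67 and 68 and to 292.4 CPM in mouse 43, against 462.3 to 643.9 CPM in vehicle mice, and 4 of the 8 were lower at 30 µg/kg. The 3 mice with the lowest member levels were thus the 3 with the lowest crypt marker sum, and the next lowest sum was 422.6 CPM. They were also the 3 with the lowest sums of mitochondrial ribosomal protein genes (851.4, 927.6 and 956.0 CPM, next 1007), of assembly factors outside the rule and of electron carriers. Mice 67, 68 and 43 further had the 3 lowest TMM factors of the 27 mice (0.885, 0.882 and 0.950). Among treated mice they had the largest shares of all genes below all vehicle mice (37.1, 34.2 and 33.7%). Their difference was thus not limited to crypt markers. Smooth muscle markers summed to 345.4 CPM in mouse 65, against 78.58 and 36.23 CPM in mice 67 and 68 and 25.01 to 109.5 CPM in vehicle mice. Among all 27 mice, mouse 58 at 10 µg/kg was higher (394 CPM). Of the goblet and enteroendocrine markers, 5 of 6 and 4 of 6 were higher at 30 µg/kg, and of the B and plasma cell markers 2 of 6 were lower. Of the 8 enterocyte markers 1 was higher and 1 lower, but their sum was 6010 CPM in mouse 65, the lowest of the 27 mice, 11400 CPM in mouse 67, the highest, and 8611 CPM in mouse 68, against 7052 to 8422 CPM in vehicle mice. Enterocyte markers thus also split mouse 65 from mouse 67, with the higher sum in the mouse with lower member levels. Mouse 43, also low in members, went the other way, at 6854 CPM, below all vehicle mice. No Paneth, smooth muscle, T cell or tested erythroid marker passed the adjusted p by edgeR, with medians of -0.222, 1.213, -0.018 and -0.127. The part of these cell type differences in the members' values was not tested.

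**Figure D5:**
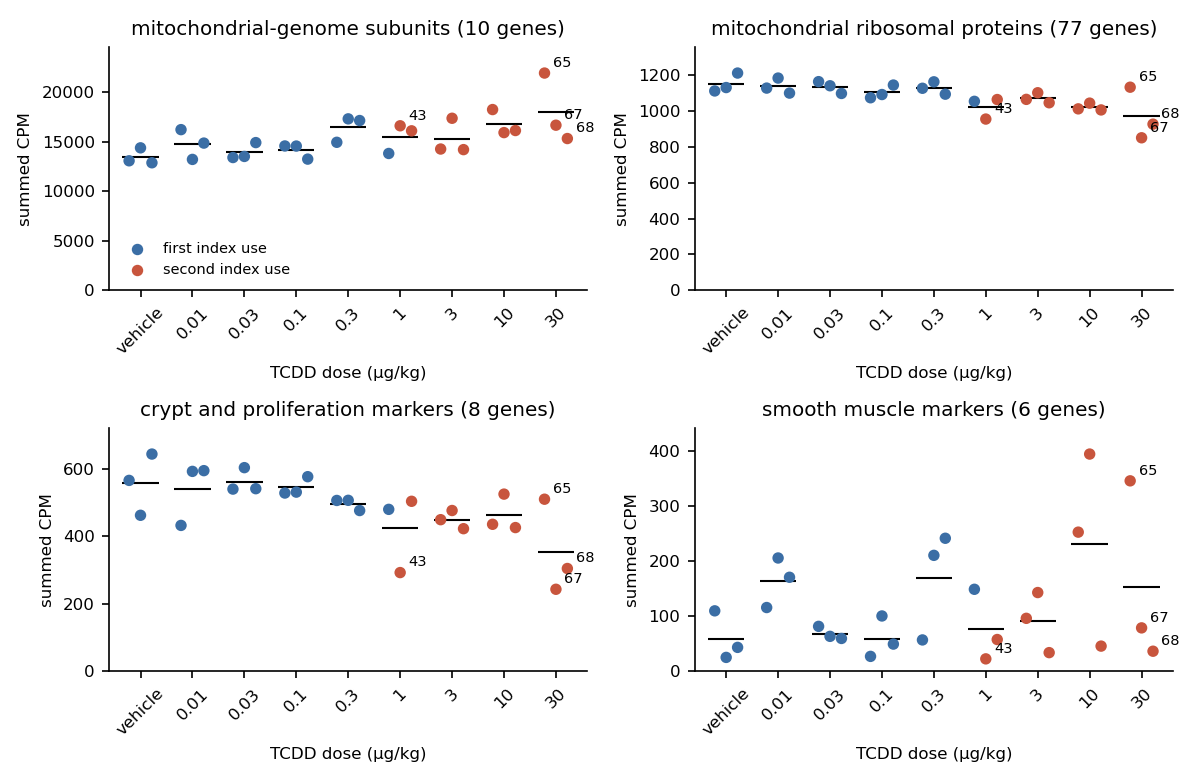
Summed CPM of mitochondrial-genome subunits, mitochondrial ribosomal protein genes, crypt and proliferation markers and smooth muscle markers in each mouse (dots) by dose in µg/kg, with group means as bars. Mice 67, 68 and 43 are lowest for the ribosomal protein genes and for the crypt markers, and mouse 65 is highest for the mitochondrial genome. Sums take in all genes of a list in the count files, 13 and 78 for the first 2 lists. The panel titles give the numbers tested, 10 and 77.

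A slope over the rank of the dose, which uses all 27 mice, was negative at the adjusted p for 25 members (28.7%, against 12.8% of all genes lower and 13.4% higher). 0 were positive by edgeR and DESeq2, with 2 at an unadjusted p under 0.05. Of the 25, 15 were also lower at 30 µg/kg in the comparison with vehicle, which shares the same mice. The steepest were *Ndufaf5* (-0.078 log2 units per dose step, SE 0.019, adjusted p = 0.00234) and *Ndufb6* (-0.071, SE 0.013, adjusted p = 0.000225). With index use or the clock score as a covariate the slope was negative for 0 members by edgeR, and likewise within the 16 mice of the first and within the 11 of the second index use. Without mice 67 and 68 the count was 5: *Ndufaf5*, *Ndufb6*, *Ndufs8*, *Uqcrb* and *Uqcrfs1*. Any difference among the 9 groups was found for 6 members (6.9%, against 9.53% of all genes): *Cox6a1*, *Ndufb6*, *Cox6b1*, *Uqcrfs1*, *Ndufs8* and *Uqcrb*.

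Index use and the clock genes moved with dose. The 30 µg/kg mice can be compared with 3 µg/kg within the second use: 1 member was lower, *Cox6a1* (log2 fold change -0.34, SE 0.071, adjusted p = 0.0171), where 0.358% of all genes were lower. At an unadjusted p under 0.05, 37 members were lower, and 82 of 87 were below 0, against 47.4% of all genes. The call of *Cox6a1* was lost without mouse 50, 51, 67 or 68. The count at the adjusted p was 2 without mouse 52, and it was 37 without mouse 65. With index use as a covariate, 1 member (1.15%), *Ndufb6*, was lower at 30 µg/kg against vehicle, where 1.13% of all genes were lower. Both uses occurred in the same group only at 1 µg/kg (mouse 41 against mice 43 and 44). The covariate was thus set by those mice alone, and this fit cannot decide whether the members exceeded the background. Clock genes, which cycle with time of day, also changed with dose: 10 of 15 were higher at 30 µg/kg and 4 lower. The changes, in either direction, were led by *Per2*, *Per3*, *Cry2*, *Tef* and *Arntl*. With a score of the 15 clock genes as a covariate, 0 members passed by edgeR at 30 µg/kg, and 0% of all genes were lower. That score counts *Arntl*, *Npas2* and *Clock* with reversed sign. Vehicle mice scored -0.682 to -0.583 and the mice given 30 µg/kg scored 0.896 to 1.121, so clock level and dose cannot be told apart in this comparison.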

How the data were processed

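Ileal epithelium of 27 mice was profiled by RNA-Seq, 3 mice per group. Per the labels and the processing notes, the authors checked reads with FastQC 0.11.3, trimmed them with Trimmomatic 0.33, aligned them to GRCm38 with TopHat2 2.1.0 and SAMtools 1.2.0, and deposited raw counts per gene from HTSeq 0.6.1. The strand setting is not given in the sources used here. Summary lines that name no gene, of which reads on no feature were 44.48 to 49.52%, stayed out of library sizes. Symbols came from GENCODE M21. The members and lists were chosen with earlier results of these data known.

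All 27 mice were fitted with edgeR 4.0.16 (R 4.3.3; TMM, filterByExpr at its minimum of 10 counts, 9 groups, quasi-likelihood F test), with Benjamini-Hochberg adjustment over 16741 genes. SEs were derived from the log2 fold change and F. Calls used an adjusted p of at most 0.05, with and without a 1.5-fold limit. DESeq2 1.42.0, other normalizations, filters, covariates (index use, clock score) and left-out mice were alternatives. The scripts were tested on simulated data. No pair among 27 same-group pairs of libraries agreed within sampling noise. P-values measure the spread between mice within groups, estimated for each gene over all 9 groups. Calls at 30 µg/kg thus rest in part on the spread of the other groups. The SD of the members' median deviation, pooled over vehicle and a dose, was 0.126 at 30 µg/kg and 0.025 to 0.061 at the other doses. Mice were co-housed by the study's methods, and which shared a cage is not given in the sources used here, so mice of a group may be cage mates and not independent.

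Genes were named if past both limits at 30 µg/kg, if among the 8 of smallest p without overlap, if in complex II or an isoform pair, or if highest or lowest in level in a complex. Outside the members, *Cyp1a1* and up to 5 called genes per list were named. Other genes were named after their values were seen. The TPM form divides counts by the joined length of all annotated exons. Counting error is the only error that depth sets here.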

Additional observations from a re-analysis of the deposited data

How the results depend on the processing

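The 11 named members past the adjusted p at 30 µg/kg kept their direction in all 165 values under alternatives, and 113 of these passed the adjusted p. All of these members had every mouse at 30 µg/kg below every vehicle mouse. Leaving out a mouse or rescaling could thus hardly reverse them. With the clock score as a covariate, however, *Uqcrb* was -0.009, *Atp5l* -0.016, *Ndufs4* -0.028 and *Uqcrfs1* -0.130. With library size alone as the scale, which moved the median of all genes at 30 µg/kg to -0.111 (14.2% of all genes lower and 5.45% higher, against 8.49 and 9.29%), 35 members were lower, 5 of them past the fold limit, with 3 lower in 30 against 3 µg/kg, 12 for any difference and 44 by slope, and medians of 0.066 at 0.03 µg/kg and -0.107 at 10 µg/kg. RLE size factors gave 2 lower in 30 against 3 µg/kg, and DESeq2 gave 7, with 13 for any difference and 1 at 1 µg/kg. Without a filter, 10 were lower at 30 µg/kg (4.49% of all genes) and 3 passed for any difference. With at least 10 counts in every mouse, 2 were lower in 30 against 3 µg/kg and 1 slope, of *Cox6b2*, was positive. With index use as a covariate, 0 were lower at 3 µg/kg under both rules, 1 (*Ndufb6*) at 30 µg/kg under both, and 0 by slope or any difference. With the clock score, 0 were lower in each of these and in 30 against 3 µg/kg, and the median at 10 µg/kg was 0.026. With the 6 mice of the comparison alone, 2 were lower at 30 µg/kg (2.12% of all genes), 1 past the fold limit. The slope was negative for 0 members within the 16 mice of the first or the 11 of the second index use, and for 4 without the mice at 30 µg/kg. Chosen after seeing the data, slopes without mice 67 and 68 gave 5 lower, and without mouse 65 gave 29 lower and 1 higher. The cause of these shifts was not tested.

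Some values changed sign: *Ndufb2* was 0.001 under upper-quartile normalization, 0.010 with at least 10 counts and 0.036 with the clock score, *Uqcr11* was 0.004 in the last 2 settings, and *Cox7a1* was 0.166 with index use and 0.022 with the clock score. *Atp5g2* was 0.228 with index use. With the clock score *Sdha*, *Sdhb*, *Sdhc*, and *Sdhd* were 0.069, 0.021, 0.020 and 0.060, and *Ndufaf2* went from -0.651 to 0.028.

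Leaving out 1 mouse at a time gave 5 to 49 members lower at 30 µg/kg and 1 to 11 past the fold limit, with 0 to 1 higher under both rules. It gave 0 to 1 lower at 3 µg/kg under both rules, and 0 to 37 lower and 0 to 1 higher in 30 against 3 µg/kg. For the slope this was run for mice 43 and 65 alone, with 0 to 1 positive. The median ranged from -0.310 to -0.118 at 30 µg/kg and from -0.070 to -0.032 at 10 µg/kg. *Atp5g2* ranged from -0.200 to 0.080, *Cox7a1* from -0.298 to 0.058, *Cox8a* from -0.210 to 0.026, *Ndufb2* from -0.289 to 0.133 and *Uqcr11* from -0.301 to 0.132. No paired analysis was possible because the labels give no number that ties mice of different groups.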
